A study of Mus musculus with 6 samples.

Results

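The 10 genes described here encode the enzymes of de novo purine synthesis in mouse, taken in pathway order by name: Prps1, Ppat, Gart, Pfas, Paics, Adsl, Atic, Impdh1, Impdh2 and Gmps. They are 10 of the 49671 gene identifiers in the count table, and all 10 passed the filter on low counts. Polyadenylated RNA was sequenced from BALB/c mouse LSK cells, which carry Kit and Sca-1 but no markers of mature blood lineages and include the stem cells of the marrow and the least committed progenitors. The 3 shCxxc5 libraries came from cells infected with a retrovirus carrying a short hairpin RNA against Cxxc5, and the 3 shCtrl libraries from cells infected with a retrovirus whose hairpin targets no mouse gene. In both groups stem and progenitor enriched marrow was infected, GFP-positive LSK cells were sorted, and cells of several animals were pooled for each RNA sample. The libraries are numbered 2, 3 and 4 in both groups. The labels give no age of the mice. Nor do they state whether libraries of different number were infected separately, so the p-values cover the spread among these libraries, part of which may be technical.

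Purine synthesis builds the adenine and guanine nucleotides of DNA, RNA and energy metabolism from small precursors. A phosphoribosyl group is activated, the purine ring is assembled on it step by step to inosine monophosphate (IMP), and IMP is then turned into AMP or GMP. Dividing cells rely on this route to enlarge their nucleotide pool, while resting cells draw more on salvage of free bases and nucleosides. Carbon for the ring comes from folate-bound formyl groups and glycine, which links the route to serine and folate metabolism.

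Ppat and Paics, whose enzymes catalyse the committed first step and a middle step of the ring assembly, lie head to head on chromosome 5 of GRCm38. Ppat runs on the minus strand from 76913249 to 76951578 and Paics on the plus strand from 76951307 to 76967509. Their annotated starts are 271 bases apart, and their exons share 272 bases on opposite strands. RefSeq promoter windows, 250 bases before to 50 after a gene's start on GRCm38.p6, were found for 9 of the 10 genes. Windows of 4 genes are shown: Ppat (chr5:76951529-76951828, minus strand) and Paics (chr5:76951052-76951351, plus strand), because they share a start region and only Ppat passed the test below, Atic (chr1:71556906-71557205, plus strand), whose groups did not overlap, and Impdh2 (chr9:108560186-108560485, plus strand), which holds the same E-box as Paics and Atic and did not pass the test of the hairpins. Each is written 5′ to 3′ on the gene's strand, and capitals mark motif matches.
Ppat: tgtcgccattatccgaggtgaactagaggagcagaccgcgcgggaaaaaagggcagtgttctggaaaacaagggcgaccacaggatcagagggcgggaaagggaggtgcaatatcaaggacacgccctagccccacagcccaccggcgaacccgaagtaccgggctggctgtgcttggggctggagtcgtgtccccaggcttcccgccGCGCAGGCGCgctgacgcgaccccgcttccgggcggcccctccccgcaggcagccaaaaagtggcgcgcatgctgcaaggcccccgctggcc
Paics: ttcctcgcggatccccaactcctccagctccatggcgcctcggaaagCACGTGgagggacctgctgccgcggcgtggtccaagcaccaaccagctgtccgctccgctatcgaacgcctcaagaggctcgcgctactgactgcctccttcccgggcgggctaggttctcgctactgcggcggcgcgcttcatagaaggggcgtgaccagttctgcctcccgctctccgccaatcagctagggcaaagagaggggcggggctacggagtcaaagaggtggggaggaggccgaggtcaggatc
Atic: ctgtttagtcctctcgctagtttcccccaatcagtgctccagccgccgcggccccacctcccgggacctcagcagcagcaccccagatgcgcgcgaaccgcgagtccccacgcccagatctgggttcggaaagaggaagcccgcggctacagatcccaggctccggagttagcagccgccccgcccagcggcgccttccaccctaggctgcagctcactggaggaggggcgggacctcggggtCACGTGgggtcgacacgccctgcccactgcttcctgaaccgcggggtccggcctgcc
Impdh2: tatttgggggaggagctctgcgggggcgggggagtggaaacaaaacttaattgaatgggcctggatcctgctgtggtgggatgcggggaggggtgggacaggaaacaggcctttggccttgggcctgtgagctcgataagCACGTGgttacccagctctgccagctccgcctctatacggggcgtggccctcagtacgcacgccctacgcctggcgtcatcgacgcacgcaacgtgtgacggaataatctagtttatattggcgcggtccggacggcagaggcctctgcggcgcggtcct
Matches were searched on both strands for CACGTG (the E-box bound by MYC and related factors), TGATGNAA (the element bound by ATF4 with C/EBP partners), TGACGTCA (the cyclic AMP response element) and GCGCNNGCG (the core of NRF1 sites, shortened by a base). CACGTG was present in 7.15% of all 32851 windows. It stood in Paics, starting 203 bases before the start, in Impdh2, 110 bases before it, and in Atic, 7 bases before it. These distances are to the RefSeq starts. In the GENCODE annotation used for gene positions, Impdh2 starts at 108560286, ahead of its E-box, which then lies inside the gene. Atic starts there at 71557150, within its E-box, which then lies across the start. GCGCNNGCG, in 12.1% of all windows, stood in Ppat on both strands, overlapping itself, and in Prps1. TGATGNAA, in 3.97%, stood in Prps1, and TGACGTCA, in 1.79%, stood in none of the 9 genes' windows. No match to any of the 4 motifs was in the windows of Gart, Adsl, Gmps and Impdh1. The Ppat, Paics and Atic windows held 27 CpG dinucleotides each, more than 84.5% of all windows, whose median was 7. The Impdh2 window held 24. Every window of the 9 genes lay above that median, the lowest being an Impdh1 window with 14.

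Total counts ran from 16558791 to 27754019 in shCxxc5 and from 15002414 to 23285446 in shCtrl. Cxxc5 itself stood at 6.74, 17.4 and 17.9 CPM (counts scaled to a common library size, with TMM factors) in shCxxc5 replicates 2, 3 and 4, against 82.2, 59.9 and 57.9 CPM in shCtrl. Every shCxxc5 library lay below every shCtrl library. The libraries numbered 2 differed from all others. Over genes, chi-square per degree of freedom was 2.28 between shCxxc5 replicates 3 and 4 and 2.33 between those of shCtrl, against 88 to 153 for pairs that include replicate 2. The transcript of Sca-1, Ly6a, was at 33.1 CPM in shCxxc5 replicate 2 and 46.4 CPM in shCtrl replicate 2, against 703 to 804 CPM in the other 4 libraries. Kit lay between 82.4 and 110.4 CPM in all 6. Of 7 lineage markers that the sort removes, Cd3e was at 0 everywhere, and the summed level of the 7 was 19.6 to 26.9 CPM in shCxxc5 and 26.0 to 31.99 CPM in shCtrl. All 9 megakaryocyte and platelet markers were higher in replicate 2. Their sum was 1556 CPM in shCxxc5 replicate 2 and 6517 CPM in shCtrl replicate 2, against 296 to 305 CPM in the other shCxxc5 and 477 to 479.5 CPM in the other shCtrl libraries. The summed granulocyte and monocyte progenitor markers were at 5789.65 CPM in shCxxc5 replicate 2, while the other 2 shCxxc5 libraries stood at 1193 and 1202 CPM, and shCtrl at 795 to 1049 CPM. Summed mast cell and basophil markers stood at 1471 CPM in shCxxc5 replicate 2, against 195 to 397 CPM in all other libraries, and all 5 tested erythroid markers were higher in replicate 2. The part of these differences in the values below was not tested, and results are given over all 6 libraries and for replicates 3 and 4 alone. In bulk RNA, fewer cells of a type and less RNA per cell cannot be told apart.

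Scaled to exon length, Paics was the highest of the 10 enzyme transcripts in every library and Gart the next. The length merges all annotated exons of a gene, 5.144 kb for Gart and 7.985 kb for Atic. It can exceed that of the transcripts present, which was not measured, so the order depends on the annotation. Paics stood at 175, 263 and 261 CPM per kb in shCxxc5 replicates 2, 3 and 4, and at 153, 246 and 252 CPM per kb in shCtrl. Gart ranged from 60.2 to 93.4 CPM per kb over the 6 libraries. The order then ran Prps1 (48.8 to 59.2), Ppat (35.3 to 60.2), Atic (35.5 to 41.6), Adsl (31.6 to 39.7), Pfas (31.5 to 37.7), Impdh1 (23.0 to 35.0), Gmps (18.6 to 30.1) and Impdh2 (21.4 to 27.8), all in CPM per kb. Only Paics and Gart were clear of the gene that followed them, and from Prps1 down the ranges of neighbours overlapped.

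**Figure D1:**
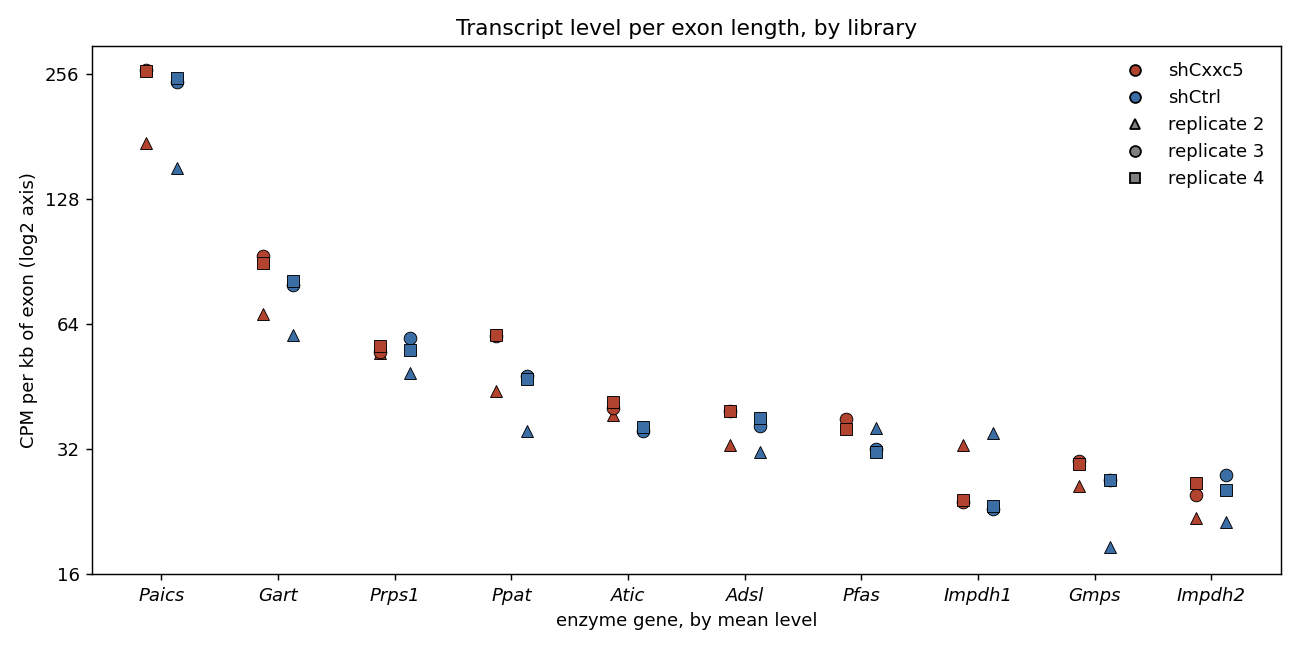
Level of each enzyme transcript in CPM per kb of exon (log2 axis), genes in order of their mean, with shCxxc5 libraries on the left and shCtrl on the right of each gene and the replicate number as the marker shape. Paics lies above all other genes in every library, and its replicate 2 libraries (175 in shCxxc5 and 153 in shCtrl) lie below the other 4.

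Among replicates 3 and 4, transcripts of 5 of the 10 enzymes rose in shCxxc5 cells and 0 fell by edgeR's quasi-likelihood test (Benjamini-Hochberg adjusted p under 0.05, n = 2 libraries per group). The 5 were Ppat, Gart, Pfas, Atic and Gmps, and the rises were small, from 10.9% for Gmps to 26.5% for Ppat. The background there was 10.96% of 14193 tested genes called higher and 9.004% called lower. Among genes at an average log2 CPM of at least 5, as all 10 enzymes were, it was 20.99% higher and 10.8% lower. In 8 of the 10 (all but Prps1 and Impdh2) both shCxxc5 libraries lay above both shCtrl libraries. The background was 27.8% of all genes tested that parted this way and 29.4% that parted the other way. These 2 shares were not worked out for genes of like level. Over all 6 libraries edgeR called 0 of 10 (0 also at an unadjusted p under 0.05, and 0 adjusted and 1 unadjusted in DESeq2), as it called 0.00% of 14637 genes in each direction. The coefficient of biological variation was 0.312 over 6 libraries and 0.0294 in replicates 3 and 4. Over 6 libraries even Cxxc5 did not pass, at a log2 fold change of -2.25 (SE 0.40, adjusted p = 0.940 in edgeR). A lack of calls there therefore does not show that a gene was unchanged. Markers of other cell types were called in replicates 3 and 4 as well. Of 8 tested megakaryocyte and platelet markers 4 fell and 0 rose, from -0.56 for Itga2b to -0.93 for Vwf, and of 5 erythroid markers 2 fell and 0 rose (Gata1 and Klf1). Of 8 granulocyte and monocyte progenitor markers 3 rose, Prtn3 most (0.53, SE 0.034), and 2 fell, and of 6 mast cell and basophil markers 3 rose, Prss34 most (0.77, SE 0.10), and 3 fell. Of 7 stem cell markers Hlf rose (0.39, SE 0.077) and Slamf1 fell (-0.29, SE 0.10), and Ly6a fell by 0.16 on the log2 scale (SE 0.031). Their part in the rises of the purine enzymes was not tested. The median log2 fold change of the 10 was 0.12 in replicates 3 and 4, against -0.0030 over all genes tested, and 0.13 over all 6 libraries, against -0.022.

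Phosphoribosyl pyrophosphate synthetase 1, encoded by Prps1, makes the activated sugar on which the ring is built. Prps1 stood at 109, 109.7 and 113 CPM in shCxxc5 replicates 2, 3 and 4, against 97.2, 118 and 111 CPM in shCtrl. The groups overlapped and the pairs of equal number went in different directions, with a fitted log2 fold change of -0.038 (SE 0.046) in replicates 3 and 4. Amidophosphoribosyltransferase, encoded by Ppat, takes the committed and feedback-regulated first step. Ppat was at 196, 265 and 266 CPM in shCxxc5 and at 156, 212 and 209 CPM in shCtrl. Both groups had their lowest library in replicate 2, so the ranges overlapped, yet in each pair the shCxxc5 library was the higher one, by 25.2%, 25.0% and 27.3% in pairs 2, 3 and 4. Ppat was the largest rise among the 10 in replicates 3 and 4, with a log2 fold change of 0.34 (SE 0.037, adjusted p = 7.15e-08), and over all 6 libraries its log2 fold change was 0.33 (SE 0.18, adjusted p = 0.940).

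The trifunctional enzyme encoded by Gart catalyses 3 of the ring-building reactions, 1 of them a transfer of a formyl group from folate. Gart was at 349, 480.4 and 464 CPM in shCxxc5, against 309, 410.5 and 418 CPM in shCtrl. It was higher in each pair, by 12.8%, 17.0% and 11.02%, and rose in replicates 3 and 4 by a log2 fold change of 0.20 (SE 0.034, adjusted p = 9.68e-05). Exons of Gart share 1014 bases with an antisense gene, whose reads would be mixed in if strand was not used in counting (the kit marks strand, and the setting of the counting is not given). Pfas encodes a synthase of the ring assembly that brings in nitrogen from glutamine. Pfas stood at 289.8, 299 and 284 CPM in shCxxc5 and at 286, 254 and 249.6 CPM in shCtrl. The shCxxc5 libraries were close together, and shCtrl replicate 2 lay among them, so that the pair ratios were 1.49%, 18.0% and 13.8% above control. Pfas rose in replicates 3 and 4 by 0.22 on the log2 scale (SE 0.037, adjusted p = 7.86e-05).

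Paics, the bifunctional enzyme that carboxylates the imidazole ring and adds aspartate, was the most abundant transcript per length but had a small fold change. It stood at 549, 824 and 820.4 CPM in shCxxc5, against 479, 771 and 789 CPM in shCtrl. In each pair the shCxxc5 library was higher, by 14.5%, 6.92% and 3.91%. The log2 fold change in replicates 3 and 4 was 0.082 (SE 0.031, adjusted p = 0.0643), which did not pass. With the replicate number as a block edgeR gave an adjusted p of 0.0403, past the threshold, at the same log2 fold change of 0.082. Adsl encodes adenylosuccinate lyase, which works both in the ring assembly and in the AMP branch. Its levels were 185, 223 and 223 CPM in shCxxc5 and 178, 206 and 215 CPM in shCtrl, with a log2 fold change of 0.094 (SE 0.038, adjusted p = 0.0843) in replicates 3 and 4. Atic, whose bifunctional product adds the last formyl group and closes the ring to IMP, was the 1 enzyme of the 10 whose groups did not overlap over all 6 libraries. The background over all genes tested, of any level, was 6.72% higher and 6.35% lower. Atic stood at 309, 321 and 332 CPM in shCxxc5, above 289.8, 284 and 289.6 CPM in shCtrl. Its log2 fold change was 0.19 (SE 0.036, adjusted p = 0.000241) in replicates 3 and 4 and 0.16 (SE 0.074, adjusted p = 0.940) over all 6.

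**Figure D2:**
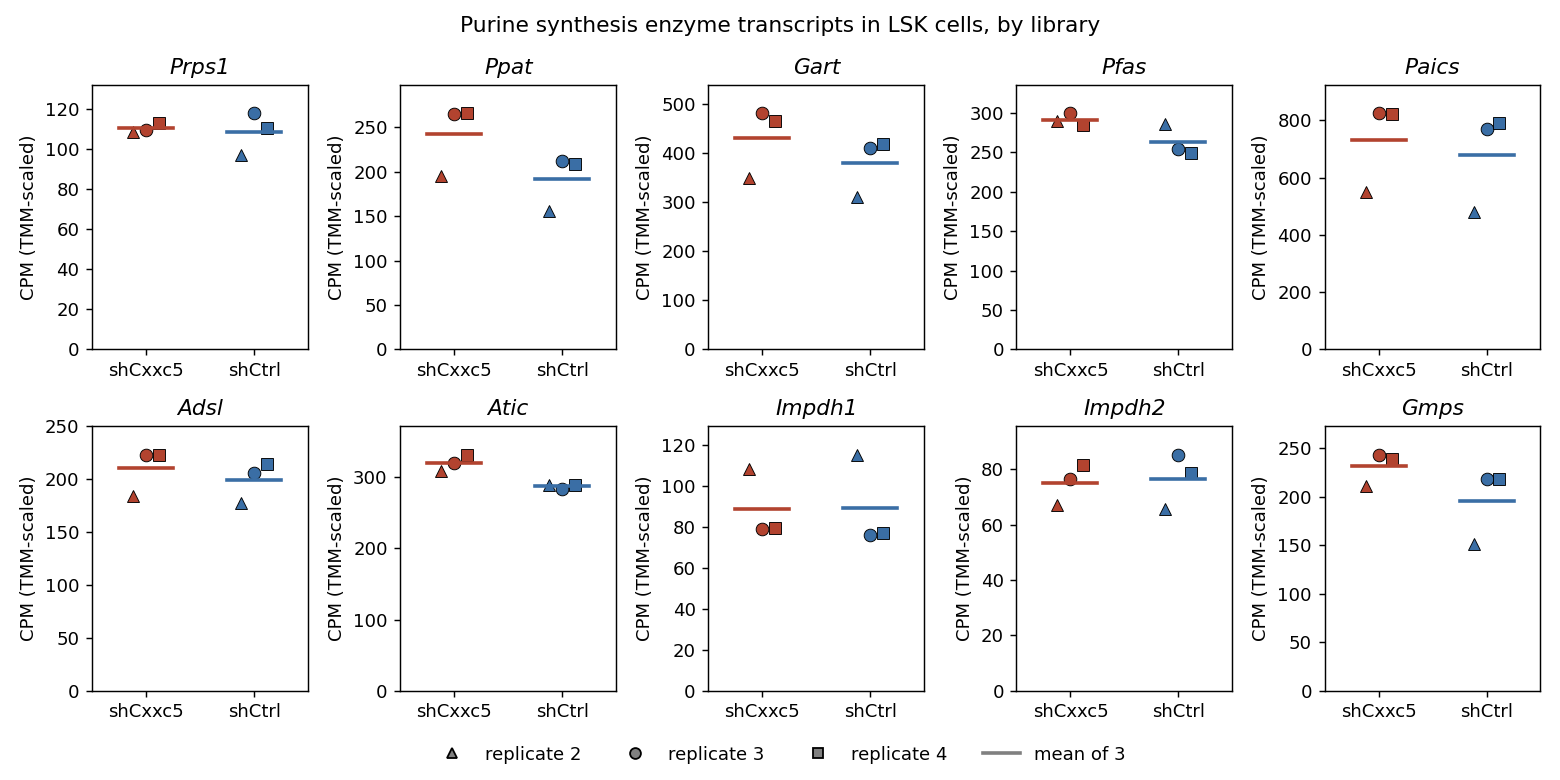
TMM-scaled CPM of each of the 10 enzyme transcripts (vertical axes from 0) in the 3 shCxxc5 libraries on the left and the 3 shCtrl libraries on the right, with marker shapes for the replicate number and bars at the group means. Atic parts the groups fully (309 to 332 in shCxxc5 against 284 to 289.8 in shCtrl). Ppat, Gart, Pfas, Paics, Adsl, Impdh1 and Gmps part them in replicates 3 and 4 but not with replicate 2. Impdh1 is highest in replicate 2 (108 in shCxxc5 and 115 in shCtrl).

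In the branch to GMP, IMP dehydrogenase is rate limiting and GMP synthetase completes the conversion. Neither dehydrogenase gene passed. Impdh1 stood at 108, 78.7 and 79.5 CPM in shCxxc5 and at 115, 75.7 and 77.1 CPM in shCtrl, with the highest library of each group in replicate 2. Impdh2, the isoform tied to proliferation, stood at 67.2, 76.5 and 81.7 CPM in shCxxc5 and at 65.9, 85.4 and 78.6 CPM in shCtrl, and its groups overlapped. Their log2 fold changes in replicates 3 and 4 were 0.056 (SE 0.051, adjusted p = 0.499) for Impdh1 and -0.057 (SE 0.054, adjusted p = 0.520) for Impdh2. Gmps was at 211, 244 and 239 CPM in shCxxc5, against 151, 218 and 219 CPM in shCtrl. It was higher in each pair, and most so in pair 2, by 39.8%, 11.6% and 9.34% in pairs 2, 3 and 4. The log2 fold change of Gmps in replicates 3 and 4 was 0.15 (SE 0.037, adjusted p = 0.00429), a call that was lost without shCxxc5 replicate 3 (adjusted p = 0.0834) and without shCtrl replicate 3 (adjusted p = 0.0514). With DESeq2 and the replicate block Gmps had an adjusted p of 0.162.

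Within pairs of equal number, 9, 8 and 10 of the 10 transcripts were higher in shCxxc5 in pairs 2, 3 and 4. Ppat, Gart, Pfas, Paics, Adsl, Atic and Gmps, which is 7 of 10, were higher in all 3 pairs, and 0 were lower in all 3. Over all genes tested 19.03% were higher in all 3 pairs and 22.4% lower, shares that were not worked out for genes of like level. The median log2 ratios of the 10 were 0.13, 0.14 and 0.092 in pairs 2, 3 and 4, against -0.039, -0.0087 and -0.0047 over all genes tested. The summed level of the 10 transcripts was 2372, 2922 and 2902 CPM in shCxxc5, against 2127.5, 2634 and 2655 CPM in shCtrl.

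**Figure D3:**
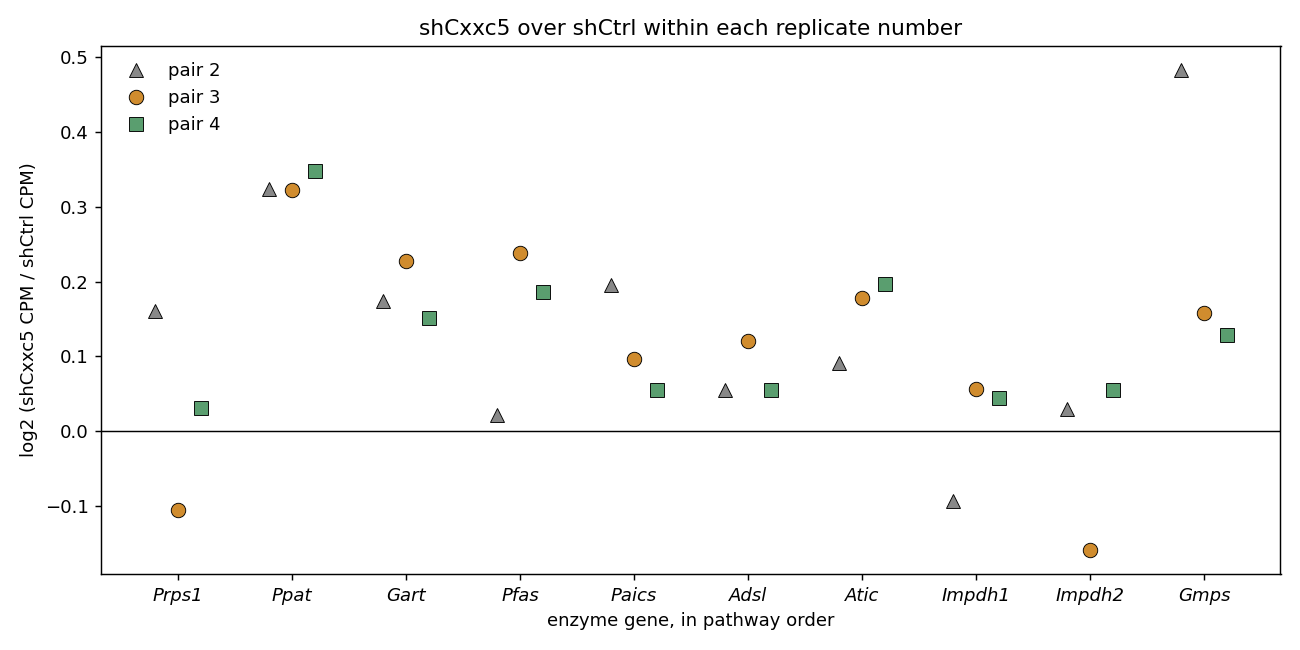
log2 ratio of shCxxc5 CPM over shCtrl CPM (vertical axis) for each enzyme gene in pathway order, with a marker for each replicate number. Ppat has nearly the same ratio in the 3 pairs (0.32, 0.32 and 0.35), Gmps stands highest in pair 2 (0.48), and Prps1, Impdh1 and Impdh2 lie on both sides of 0.

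A term for a different shCxxc5 effect in replicate 2 than in replicates 3 and 4 was past the threshold for 3 of the 10 enzymes. The ratio of shCxxc5 over shCtrl was higher in replicate 2 for Gmps, by 0.34 on the log2 scale (SE 0.067, adjusted p = 7.30e-05), and for Prps1, by 0.20 (SE 0.079, adjusted p = 0.0385). For Pfas it was lower, at -0.19 (SE 0.064, adjusted p = 0.0169). Over all genes 16.8% were called with a higher and 19.01% with a lower ratio there, whatever the size of the effect. That balance turned to 2850 higher and 2324 lower by total counts and to 2744 and 2283 with no filter. The spread in that test comes from replicates 3 and 4 alone, with 2 residual degrees of freedom, and the lone replicate 2 libraries are taken to vary like them. Gmps alone passed with DESeq2 and without shCxxc5 replicate 3. The Prps1 term was lost with DESeq2 (adjusted p = 0.247) and without shCxxc5 replicate 3 (0.129) or shCtrl replicate 3 (0.124), and that of Pfas with DESeq2 (0.177), total counts (0.0842), no filter (0.124) and without shCxxc5 replicate 3 (0.150). The Paics term (0.12, adjusted p = 0.0998) passed by total counts (0.17, adjusted p = 0.0156), with no filter (0.17, adjusted p = 0.0295) and without shCtrl replicate 3 (0.15, adjusted p = 0.0402). By total counts and with no filter the 3 that passed therefore all had a higher ratio in replicate 2 and 0 a lower one. For Ppat and Gart the terms were near 0, at -0.0099 (SE 0.067) and -0.016 (SE 0.061).

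Levels also followed the replicate number. In replicate 2, 6 of the 10 transcripts were lower than in replicates 3 and 4 with the group in edgeR's fit (Ppat, Gart, Paics, Adsl, Impdh2 and Gmps), and 1, Impdh1, was higher. Over all genes 18.7% were lower and 17.7% higher, and among genes at an average log2 CPM of at least 5 these shares were 26.4% and 17.2%. Paics had the largest difference of the 10, at -0.64 (SE 0.053, adjusted p = 0.000449), followed by Ppat at -0.44 (SE 0.048, adjusted p = 0.00132) and Gart at -0.43 (SE 0.048, adjusted p = 0.00149). Impdh1 went the other way, at 0.52 (SE 0.059, adjusted p = 0.00150). The Gmps difference (-0.36, adjusted p = 0.0188) was lost without shCtrl replicate 3 (adjusted p = 0.0657) or shCtrl replicate 4 (0.0575), and that of Impdh2 (-0.28, adjusted p = 0.0235) without shCxxc5 replicate 4 (0.0712), shCtrl replicate 3 (0.0740) or shCtrl replicate 4 (0.0524). By total counts Impdh2 was lost as well (-0.21, adjusted p = 0.0612), which left 5 lower and 1 higher. Without shCxxc5 replicate 2, Prps1 was also lower (-0.24, adjusted p = 0.000290) and Pfas higher (0.18, adjusted p = 0.000765). The ratio of Impdh2 to Impdh1 per kb of exon followed the replicate number, with 0.667 in shCxxc5 replicate 2 and 0.612 in shCtrl replicate 2, against 1.04 and 1.10 in the other shCxxc5 and 1.21 and 1.09 in the other shCtrl libraries.

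The other purine genes are given by their place in the pathway, in replicates 3 and 4. Of 29 tested genes for phosphoribosyl pyrophosphate supply, the AMP branch, salvage, interconversion and nucleotide kinases, 7 rose and 2 fell, with a median log2 fold change of 0.058. Over all tested genes 10.96% were called higher and 9.004% lower. At an average log2 CPM of at least 5 the shares were 20.99% and 10.8%. Some of the 29, such as Nme2 and Ampd3, lay below that level, so neither background is of like level. Among the synthetase genes beside Prps1, Prps2 rose (log2 fold change 0.19, SE 0.040), at 129, 201 and 205 CPM in shCxxc5 and 103, 182 and 174 CPM in shCtrl. Prps1l3, a gene named for its likeness to Prps1, rose by 0.19 (SE 0.046). It shares 185 exon bases with Mipol1 on the same strand, and how reads were split between these related sequences is not given in the sources used here. Adenylosuccinate synthetase, the entry to the AMP branch, is encoded by Adss and Adssl1, and neither passed (-0.013 and -0.0099). In pair 2 alone Adssl1 was at 65.0 CPM in shCxxc5 and 27.5 CPM in shCtrl. In the salvage list, Aprt, which recovers adenine, rose by 0.17 (SE 0.042) and the nucleoside kinase gene Dck by 0.17 (SE 0.050). Hprt, which recovers hypoxanthine and guanine, did not pass in replicates 3 and 4 (0.075, SE 0.039) and had a log2 ratio of 0.76 in pair 2.

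Of 10 tested interconversion and degradation genes, Xdh, whose enzyme makes uric acid from hypoxanthine and xanthine, fell by 0.42 on the log2 scale (SE 0.061), and the AMP deaminase gene Ampd2 fell by 0.13 (SE 0.042), while the nucleotidase gene Nt5c2 rose by 0.14 (SE 0.049). In pair 2 Xdh was the other way, at 16.4 CPM in shCxxc5 and 11.5 CPM in shCtrl. Among nucleotide kinases, Ak6 rose by 0.24 (SE 0.069), with 1564 exon bases shared with Taf9 on the same strand, and Nme1 by 0.16 (SE 0.044), with 418 bases shared with Gm20390. Ampd2 shares 434 exon bases and Nt5c2 456 with antisense genes. Some of these calls were lost when a library was left out, which also leaves fewer samples. Those of Nt5c2 (adjusted p = 0.0526 to 0.276) were lost without any 1 of the 4, of Dck without shCxxc5 replicate 3 (0.107) or 4 (0.0594) or shCtrl replicate 3 (0.105), and of Ampd2 without shCxxc5 replicate 3 (0.156) or 4 (0.137) or shCtrl replicate 4 (0.155). Ak6 was lost without shCxxc5 replicate 3 (0.220) or shCtrl replicate 3 (0.207), and Nme1 without shCxxc5 replicate 4 (0.0885) or shCtrl replicate 4 (0.0643). Aprt was lost without shCtrl replicate 3 (0.0655) and Prps1l3 without shCxxc5 replicate 3 (0.0730). Their log2 fold changes kept their direction throughout, with 0.10 to 0.17 for Nt5c2, 0.16 to 0.18 for Dck, -0.16 to -0.10 for Ampd2, 0.17 to 0.30 for Ak6, 0.14 to 0.19 for Nme1, 0.15 to 0.19 for Aprt and 0.17 to 0.21 for Prps1l3.

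Folate and serine enzymes that supply carbon to the ring moved in both directions in replicates 3 and 4, where 2 of 11 rose and 6 fell. The background was 10.96% of all tested genes higher and 9.004% lower, and 20.99% and 10.8% at an average log2 CPM of at least 5. Some of the 11, such as Aldh1l2, lay below that level. The cytosolic enzyme Mthfd1, which makes the formyl donor used by Gart and Atic, rose by 0.27 (SE 0.037), and cytosolic Shmt1 rose by 0.20 (SE 0.040). The mitochondrial enzymes Shmt2 and Aldh1l2 fell, by log2 fold changes of -0.37 (SE 0.034) and -2.04 (SE 0.18), and so did the serine synthesis enzymes Psat1 (-0.57, SE 0.034), Psph (-0.69, SE 0.052) and Phgdh (-0.22, SE 0.045). Aldh1l2 shares 1056 exon bases and Psph 452 with antisense genes. Mthfd2, the mitochondrial partner of Mthfd1, fell as well (SE 0.039, adjusted p = 3.08e-17). It stood at 259.9, 131 and 131 CPM in shCxxc5 replicates 2, 3 and 4, against 327, 266 and 261 CPM in shCtrl, so that its level in shCxxc5 was lowest in replicates 3 and 4. In pair 2 the log2 ratios were -0.33 for Mthfd2 and -0.062 for Shmt2, and they were above 0 for Psat1 (0.12), Phgdh (0.12), Psph (0.28) and Aldh1l2 (0.20).

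**Figure D4:**
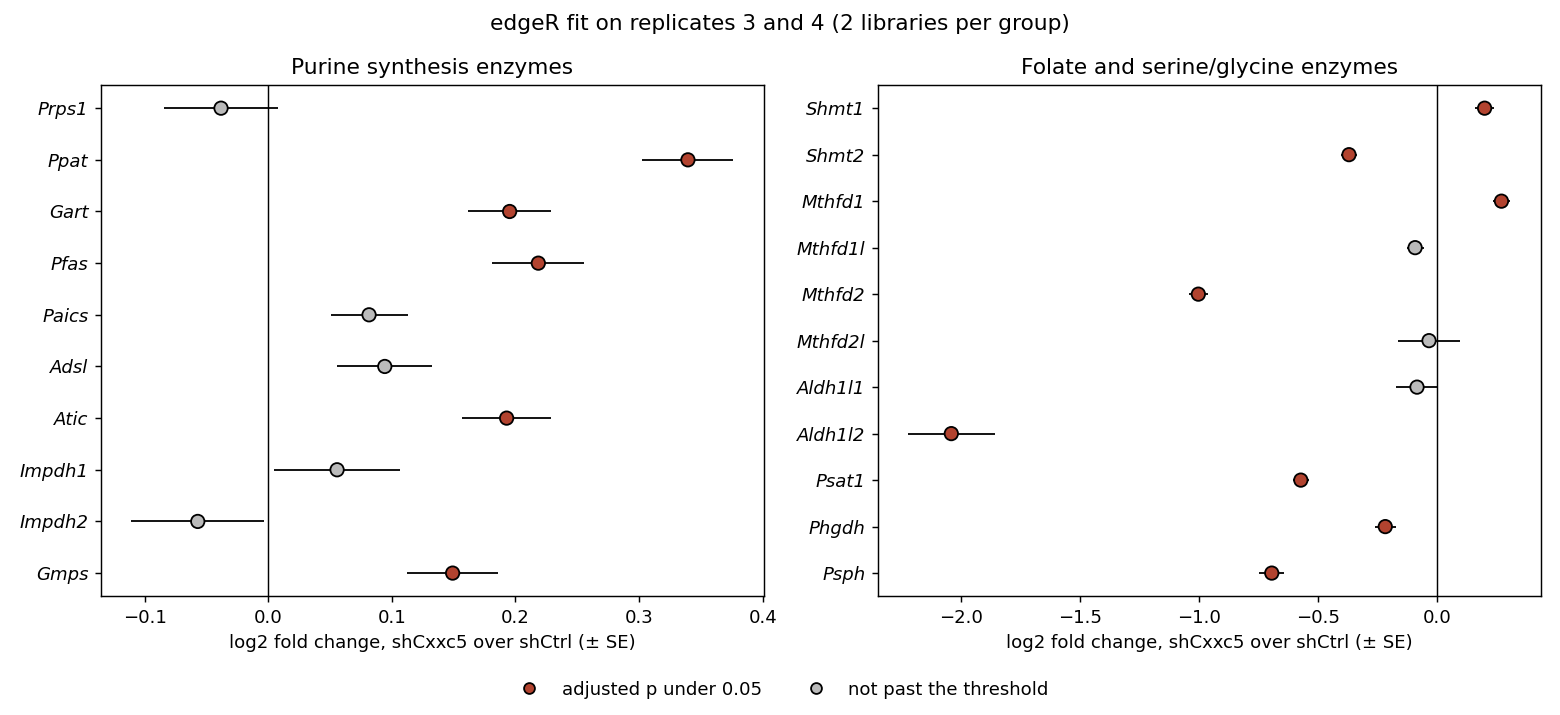
Fitted log2 fold change of shCxxc5 over shCtrl in replicates 3 and 4 (horizontal axes, different scales) with SE bars, for the 10 purine synthesis enzymes on the left and 11 folate and serine enzymes on the right, filled red where the adjusted p was under 0.05. On the left 5 genes lie to the right of 0 past the threshold, and on the right Mthfd1 and Shmt1 lie above 0 while Aldh1l2 (-2.04) lies farthest below it, followed by Mthfd2.

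Among 7 genes for regulators of purine synthesis enzymes, Max, the partner of MYC, rose by 0.17 (SE 0.046), Rps6kb1, a kinase downstream of mTOR, rose by 0.15 (SE 0.047), and Atf4, which drives serine and mitochondrial folate genes, fell by 0.64 on the log2 scale (SE 0.033). In pair 2 the log2 ratio of Atf4 was 0.077. Myc itself was at 229, 337 and 332 CPM in shCxxc5 and 234, 322 and 321 CPM in shCtrl and did not pass (0.060, SE 0.035). The Max call was lost without shCxxc5 replicate 3 (adjusted p = 0.0834) or 4 (0.0738) or shCtrl replicate 3 (0.0841), and that of Rps6kb1 without shCxxc5 replicate 3 (0.361) or shCtrl replicate 3 (0.101) or 4 (0.0916). Of 15 S phase genes 13 rose and 0 fell in replicates 3 and 4, with a median log2 fold change of 0.20. Shares over all tested genes were 10.96% higher and 9.004% lower, or 20.99% and 10.8% at an average log2 CPM of at least 5. The calls ran from 0.12 for Mcm7 to 0.49 for Fen1. Fen1 shares 1909 exon bases with an antisense gene, and Gins2 (2758), Ccne2 (609) and Mcm7 (321) also share exon bases with antisense genes. Of these calls, Mcm7 was lost without shCxxc5 replicate 3 (adjusted p = 0.224) or shCtrl replicate 3 (0.147), and Mcm2 (0.0607) and Gins2 (0.110) without shCtrl replicate 3. Their summed level was 4076, 4976 and 4877 CPM in shCxxc5, against 3797, 4310 and 4367 CPM in shCtrl. Its part in the rises of the purine enzymes was not tested.

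Of 6512 other genes at an average log2 CPM of at least 5, the 5 whose centred log2 CPM over the 6 libraries lay nearest to the mean of the 10 enzymes were Tmem183a, Dpp3, Pum2, Ndufb5 and Ppp1r8, at root mean square differences of 0.014 to 0.020 log2 units against a median of 0.17 over all these genes. Of the 10 enzymes themselves, Adsl was nearest to that mean (0.046) and Impdh1 farthest from it (0.35), followed by Paics (0.21).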

How the data were processed

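Raw read counts per gene for 6 libraries were deposited by the authors as 1 table of 49671 Ensembl identifiers. The authors used STAR 2.5.2b, featureCounts 1.5.1, DESeq2 and the GRCm38 build, per the submitters' processing notes. Libraries were made with a stranded kit, per the labels. The strand setting of the counting, the run type of each library and the treatment of reads with several matches: none is given in the sources used here. Symbols, positions and exon lengths came from GENCODE M21 (GRCm38), which matched 49412 identifiers.

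The test was edgeR 4.0.16, run in R 4.3.3 (TMM scaling, filterByExpr, robust quasi-likelihood test, adjusted p-values by Benjamini-Hochberg over all genes tested, threshold 0.05). Log2 fold changes are shCxxc5 over shCtrl, with an SE taken as their size over the root of F. The group alone was fitted over all 6 libraries and over replicates 3 and 4, and terms for replicate 2 and its interaction with the group over all 6. Centred log2 CPM used a prior count of 2. Total counts are given with the results, and the counts carry no molecular identifiers.

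Deviations from the group means correlated at 0.670, 0.554 and 0.489 between libraries numbered 2, 3 and 4 of opposite groups. Replicates 3 and 4 of opposite groups correlated at 0.489 and 0.475 when crossed. With replicate 2 apart in both groups, these values cannot tell which libraries numbered 3 and 4 belong together. Pairs 3 and 4 rest on the number alone, and the labels leave the meaning of a number unsaid. Alternatives were DESeq2 1.42.0, DESeq2 size factors and total counts as scaling, no filter, a filter of CPM of at least 1, the replicate block, and leaving out each library. The code was first run on simulated counts of known changes. With the group alone over 6 libraries it recovered 58% of 2-fold and 86% of 4-fold changes. With the replicate block it recovered 100% of both, with 7 false calls, and in replicates 3 and 4 also 100%. The simulated replicate 2 differed alike in both groups, and all counts were drawn at the spread of replicates 3 and 4 (0.0294). The real counts depart from that setting, so these shares may not apply to them. On the real counts the block fit in edgeR called 0 genes over 6 libraries. Changes as small as those of the enzymes were not simulated.

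The 10 genes and all lists were chosen with earlier results of these data known. Named were Cxxc5, the 10 enzymes, the members of the other lists past the threshold in replicates 3 and 4 (for S phase genes and cell type markers their counts and examples) or, for a list with none, its 2 highest members, and the 5 genes of nearest profile. Hprt, Myc and the pair 2 values of Adssl1 and Xdh were named after their values were seen, as were Kit, Ly6a and Cd3e. Pnp of the degradation list was not matched and is not analysed here, and 1 gene of the folate list and 1 cell type marker are not reported here.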

Additional observations from a re-analysis of the deposited data

How the results depend on the processing

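Over all 6 libraries 0 of the 10 enzymes passed under every alternative run and without any 1 library, and edgeR gave 0 at an unadjusted p under 0.05, DESeq2 1, edgeR with the replicate block 4 and DESeq2 with the block 2. In replicates 3 and 4 the count of 5 higher and 0 lower went to 6 with the replicate block in edgeR and 4 with the block in DESeq2, and to 4 or 5 without 1 library; Ppat, Gart, Pfas and Atic passed in all of these fits. The block changed no other call of the 10 there. Over all genes, edgeR called 0 over 6 libraries (575 at an unadjusted p under 0.05, and with the replicate block 0 and 1796), DESeq2 19 and DESeq2 with the block 150. In replicates 3 and 4, edgeR called 2833, DESeq2 1356, DESeq2 with the block 607, and edgeR without 1 library 1507 to 2043; by total counts the split of 1555 higher and 1278 lower turned to 1120 and 1606. For replicate 2 against the others the 5330 calls ran from 3183 to 8816 without 1 library, and by total counts the split of 2588 higher and 2742 lower turned to 3139 and 2119. For the difference of the effect in replicate 2, DESeq2 called 2390 against 5235 in edgeR, and among the 10 enzymes 1 against 3, with 1 to 3 without 1 library.

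Directions turned for values near 0. Over 6 libraries Impdh1 (-0.010) stood at 0.017 with no filter and with the replicate block at 0.0010 in edgeR and 0.0049 in DESeq2; without 1 library the ranges were -0.17 to 0.22 for Impdh1, -0.050 to 0.094 for Prps1, -0.093 to 0.28 for Paics and -0.13 to 0.062 for Impdh2. In replicates 3 and 4 they were -0.080 to 0.0086 for Prps1 and -0.11 to 0.0047 for Impdh2. For replicate 2 against the others Atic stood at 0.029 by total counts, with -0.080 to 0.015 without 1 library, and Pfas at -0.011 to 0.18. For the difference of the effect, DESeq2, its size factors, total counts and no filter gave 0.0059, 0.0062, 0.041 and 0.037 for Ppat and 0.00034, 0.00011, 0.035 and 0.031 for Gart, and total counts and no filter 0.016 and 0.013 for Adsl; without 1 library the ranges were -0.013 to 0.00097 for Ppat, -0.032 to 0.018 for Gart and -0.064 to 0.0072 for Adsl. The cause of these changes was not tested. Of the 34 genes called in replicates 3 and 4 in the other purine, folate, regulator and S phase lists (Cxxc5 counted with them, cell type markers not), 18 passed in every alternative that gave an adjusted p (Aldh1l2 had none in DESeq2 with the block), a set of alternatives applied to them after seeing the data. DESeq2 did not call Ak6, Ampd2, Dck, Max, Mcm7, Nme1, Nt5c2 and Rps6kb1 (0.0639 to 0.218), and its fit with the block also lost Phgdh (0.103), Shmt1 (0.0622), Prps2 (0.0691) and Ccne2 (0.129), besides Aprt, Prps1l3, Gins2 and Mcm2 (0.0627 to 0.198).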
